A study of Mus musculus with 16 samples.

Results

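Claudins are the membrane proteins that form the strands of tight junctions, the belts that join neighbouring epithelial cells and set what passes between them. Some members seal the space between cells and others form pores for ions, so the set of claudins that an epithelium makes differs with its barrier. In the mouse thymus, claudin-3 and claudin-4 are known as surface markers of the medullary epithelial lineage, which gives rise to the cells that make Aire. Described here are 10 claudin genes, Cldn1, Cldn3, Cldn4, Cldn5, Cldn6, Cldn7, Cldn8, Cldn10, Cldn12 and Cldn23, which were listed by symbol among the 43432 genes counted in each library. All 10 passed the filter on low counts, which left 19617 genes in the tests. The files held 33 annotated protein-coding claudin genes in all, of which 14 others were examined for comparison and 9 had at most 15 reads over all libraries.

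RNA sequencing had been done on medullary thymic epithelial cells (mTEC) of C57BL6 mice with the alleles Aire-CreERT2 and Ai14. Aire is the transcription factor with which mTEC express tissue-restricted antigens for the education of T cells. Aire-CreERT2 is a Cre recombinase driven by Aire and activated by tamoxifen, and Ai14 is a reporter that Cre switches on for good, so that the cell and its descendants carry a red fluorescent protein (RFP). All mice were 5 to 6 weeks old, of both sexes, and had received 2 mg of tamoxifen 7 days before the sort. Live CD45- EPCAM+ thymus cells were sorted into RFP+ MHCIIlo, RFP+ MHCIIhi, RFP- MHCIIlo and RFP- MHCIIhi cells. RFP+ cells had therefore expressed Aire during the pulse or descended from cells that had, and RFP- cells may have expressed Aire at other times. MHCIIhi cells hold the mature mTEC, and MHCIIlo cells hold both immature cells and cells that have passed the mature state. Each population had 4 biological replicates of 12 pooled thymi, so the p-values measure the spread between pools of mice.

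The libraries held 7.93 to 19.46 M counts (median 13.28 M). The RFP+ MHCIIlo libraries came from 19400 to 20500 cells and the others from 80500 cells or more. In principal components of the 500 most variable genes, RFP+ MHCIIlo replicate 1 scored 51.0 on component 1, which held 86.8% of the variance, where the other 3 RFP+ MHCIIlo libraries scored 28.2 to 30.9 and the RFP- MHCIIlo libraries 49.5 to 59.3. RFP+ MHCIIlo replicates 1 and 4 also stood apart on components 3 and 4, which held 1.43 and 1.3%. Replicate 1 scored 15.3 on component 3, where the other 3 scored -4.4 to 2.5, and replicate 4 scored 18.8 on component 4, where the other 3 scored -8.4 to -0.6. The sort was checked against marker lists. The 9 mature mTEC genes, Aire and MHC class II genes among them, were all lower in both MHCIIlo populations than in the MHCIIhi population with the same label. The 4 epithelial genes summed to 2205 to 2622 counts per M (CPM) in RFP+ MHCIIlo and 1863 to 2010 CPM in RFP+ MHCIIhi libraries. Their sums were lower in unlabelled cells of the same gate, at 1892 to 2137 CPM in RFP- MHCIIlo and 1453 to 1678 CPM in RFP- MHCIIhi. The 8 cortical epithelial genes summed to 3113 to 5218 CPM in RFP- MHCIIhi libraries, against 377 to 1727 CPM in the others.

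The promoters of Cldn3 and Cldn4 are shown because these neighbouring genes, both known surface markers of the medullary lineage, were higher in labelled than in unlabelled cells of both MHCII gates. The letters are the 250 bases before the RefSeq start on the coding strand, 5′ to 3′, from the RefSeq table for GRCm38.p6. Capitals mark matches on either strand to 4 motifs, which are TGANTCA (AP-1), AACNGGTT (GRHL), CACCTG (the E-box bound by SNAI and ZEB factors) and GGGCGG (SP and KLF factors), and no 2 matches overlap.
Cldn3, chr5:134985964-134986213, plus strand: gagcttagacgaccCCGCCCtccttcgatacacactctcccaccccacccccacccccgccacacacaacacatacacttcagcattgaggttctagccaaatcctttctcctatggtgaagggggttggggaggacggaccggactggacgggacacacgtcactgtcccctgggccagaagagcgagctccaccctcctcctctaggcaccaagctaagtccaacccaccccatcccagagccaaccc
Cldn4, chr5:134946935-134947184, minus strand: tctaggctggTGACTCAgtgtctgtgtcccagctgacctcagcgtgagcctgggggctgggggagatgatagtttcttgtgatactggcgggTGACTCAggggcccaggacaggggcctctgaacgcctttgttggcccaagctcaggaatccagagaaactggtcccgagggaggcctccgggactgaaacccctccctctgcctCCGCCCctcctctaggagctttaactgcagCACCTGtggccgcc
The Cldn4 window held the AP-1 motif at 2 places, from base -240 and from base -158 counted back from the start, and 6.75% of the 32851 promoters in the table held it at least once. The Cldn3 window held no AP-1 motif. Both windows held the SP and KLF motif once, as did 32.7% of promoters, and the Cldn4 window held the E-box once, as did 17.2%. Neither window held the GRHL motif, which 1.79% of promoters held. A match describes the letters of these windows and says nothing of binding in these cells. Of the 10 claudins, 8 had a promoter in the table.

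The first question the sort addresses is how cells of the Aire lineage differ from unlabelled cells of the same MHCII gate. Cldn1, Cldn3, Cldn4, Cldn7 and Cldn23 were higher in RFP+ than in RFP- cells in both gates. Per kb of exon these 5 were also the most abundant of the 10 in each population. No library of RFP+ cells overlapped the RFP- libraries of its gate for any of these 5, and the share of all genes without overlap was not counted. The other 5 claudins rose in neither gate, and Cldn12 and Cldn5 were lower in RFP+ MHCIIlo cells than in RFP- MHCIIlo cells. In RFP+ MHCIIlo against RFP- MHCIIlo, 5 claudins were higher, where 28.9% of all tested genes were higher, and 2 were lower, where 22.7% of all genes were lower. The median log2 difference was 0.43 over the 10 claudins and 0.07 over all tested genes. In RFP+ MHCIIhi against RFP- MHCIIhi, 5 claudins were higher and none was lower, against 23.8% and 21.2% of all genes, with medians of 0.76 for the claudins and -0.02 for all genes. At an unadjusted p of 0.05 edgeR also called 0 claudins lower there, as did DESeq2 and limma-voom after adjustment. Both comparisons share no library, though libraries with the same replicate number may come from the same pools of mice. Of all tested genes, 14.8% were higher in both. In bulk samples, fewer cells that make a transcript and less of it in each cell cannot be told apart.

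**Figure D1:**
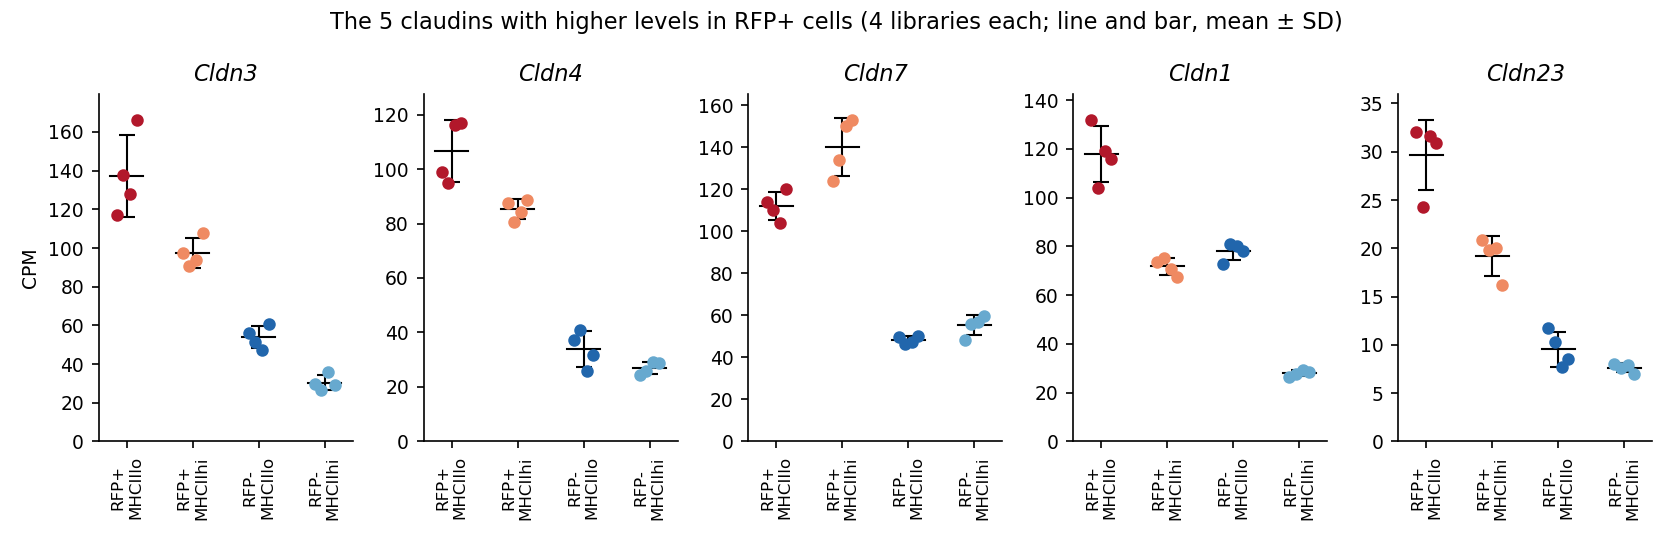
CPM of Cldn3, Cldn4, Cldn7, Cldn1 and Cldn23 in each of the 4 libraries of RFP+ MHCIIlo, RFP+ MHCIIhi, RFP- MHCIIlo and RFP- MHCIIhi cells (points), with the mean and SD (line and bar). All RFP+ points lie above the RFP- points of the same MHCII gate, and the Cldn7 mean is highest in RFP+ MHCIIhi cells, where the other 4 are highest in RFP+ MHCIIlo cells.

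Cldn3 (ENSMUSG00000070473, chr5:134986214-134987472, plus strand) encodes a sealing claudin that also binds the enterotoxin of Clostridium perfringens. Its levels were 117, 138, 128 and 166 CPM in RFP+ MHCIIlo libraries, 97.4, 90.7, 93.7 and 108 CPM in RFP+ MHCIIhi libraries, 55.9, 51.2, 47.5 and 60.6 CPM in RFP- MHCIIlo, and 29.6, 26.8, 36.1 and 29.2 CPM in RFP- MHCIIhi libraries. The 4 populations kept this order with no overlap between any of them. Cldn3 was 2.55-fold higher in RFP+ MHCIIlo than in RFP- MHCIIlo (log2 1.35, SE 0.11, adjusted p = 2.9e-10 by the quasi-likelihood test of edgeR, adjusted after Benjamini and Hochberg over all tested genes). In RFP+ MHCIIhi it was 3.21-fold higher than in RFP- MHCIIhi (log2 1.68, SE 0.11, adjusted p = 1.2e-11). Per kb of exon, which allows levels of different genes to be compared, Cldn3 had the highest mean of the 10 in 3 populations. Its means were 109, 77.5 and 42.7 CPM per kb in RFP+ MHCIIlo, RFP+ MHCIIhi and RFP- MHCIIlo. In RFP+ MHCIIhi the spreads of Cldn3 (77.5 ± 6.07) and Cldn7 (72.1 ± 6.91 CPM per kb, SD, n = 4 each) overlapped. In RFP- MHCIIhi Cldn3 averaged 24.2 ± 3.17 CPM per kb and Cldn7 28.4 ± 2.47 CPM per kb (SD, n = 4 each).

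Cldn4 (ENSMUSG00000047501, chr5:134945119-134946934, minus strand) encodes another sealing claudin that binds the same toxin. It had 99.0, 95.0, 116 and 117 CPM in RFP+ MHCIIlo libraries, 87.6, 80.7, 84.4 and 88.6 CPM in RFP+ MHCIIhi libraries, 37.1, 41.0, 25.8 and 31.9 CPM in RFP- MHCIIlo, and 24.3, 25.8, 29.1 and 28.7 CPM in RFP- MHCIIhi libraries. The labelled libraries stood clear of the unlabelled ones, while the ranges of the RFP- MHCIIlo and RFP- MHCIIhi libraries overlapped. The RFP difference had the same size in both gates, at a log2 of 1.66 (SE 0.11) in each, with adjusted p = 1.5e-11 between the MHCIIlo and 1.6e-11 between the MHCIIhi populations. The difference between these 2 log2 values was -0.01 (SE 0.15, adjusted p = 0.97).

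Cldn7 (ENSMUSG00000018569, chr11:69964779-69967885, plus strand) encodes a claudin that lies largely along the sides of epithelial cells, where it binds EPCAM. It had 114, 110, 104 and 120 CPM in RFP+ MHCIIlo libraries, 124, 134, 150 and 153 CPM in RFP+ MHCIIhi libraries, 49.5, 46.4, 47.3 and 50.2 CPM in RFP- MHCIIlo, and 48.5, 56.1, 57.0 and 59.8 CPM in RFP- MHCIIhi libraries. Each RFP+ library was above every RFP- library. The log2 difference was 1.22 (SE 0.09, adjusted p = 3e-11) for RFP+ MHCIIlo against RFP- MHCIIlo and 1.34 (SE 0.08, adjusted p = 5.2e-12) for RFP+ MHCIIhi against RFP- MHCIIhi. Cldn7 was the sole one of these 5 that was higher in MHCIIhi than in MHCIIlo cells among labelled cells.

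Cldn1 (ENSMUSG00000022512, chr16:26356642-26371841, minus strand) encodes the claudin on which the water barrier of mouse epidermis depends. It had 132, 104, 119 and 116 CPM in RFP+ MHCIIlo libraries, 73.8, 75.4, 70.7 and 67.4 CPM in RFP+ MHCIIhi libraries, 72.9, 80.9, 80.0 and 78.2 CPM in RFP- MHCIIlo, and 26.5, 27.7, 29.5 and 28.5 CPM in RFP- MHCIIhi libraries. RFP+ MHCIIlo was highest and RFP- MHCIIhi lowest, with no overlap with the others, while the populations in between overlapped. Their log2 difference, RFP+ MHCIIhi against RFP- MHCIIlo, was -0.12 (SE 0.08, adjusted p = 0.18). Cldn1 was 1.51-fold higher with the label between MHCIIlo cells (log2 0.60, SE 0.08, adjusted p = 7.4e-07) and 2.56-fold higher between MHCIIhi cells (log2 1.36, SE 0.08, adjusted p = 2.3e-12). Subtracting the MHCIIhi from the MHCIIlo value of the RFP difference gave -0.76 on the log2 scale (SE 0.11, adjusted p = 1e-05), so the difference with the label was smaller in the MHCIIlo gate.

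Cldn23 (ENSMUSG00000055976, chr8:35824712-35826559, minus strand) encodes a claudin of differentiated epithelium such as that of the intestinal surface. It had 32.0, 24.3, 31.6 and 30.9 CPM in RFP+ MHCIIlo libraries, 20.9, 19.8, 20.0 and 16.2 CPM in RFP+ MHCIIhi libraries, 11.7, 10.3, 7.68 and 8.52 CPM in RFP- MHCIIlo, and 7.98, 7.61, 7.90 and 6.95 CPM in RFP- MHCIIhi libraries. Every labelled library exceeded every unlabelled one, and the ranges of the unlabelled populations overlapped. The log2 difference was 1.65 (SE 0.13, adjusted p = 4.4e-10) for RFP+ MHCIIlo against RFP- MHCIIlo and 1.34 (SE 0.13, adjusted p = 1.4e-08) for RFP+ MHCIIhi against RFP- MHCIIhi.

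The RFP difference was tested for its dependence on the gate over all tested genes. None of the 10 claudins had a larger RFP difference in MHCIIlo than in MHCIIhi cells, where 17.5% of all genes did, and 2, Cldn1 and Cldn5, had a smaller value, where 16.6% did. DESeq2 and limma-voom, and edgeR at an unadjusted p of 0.05, also called 0 claudins with a larger difference. Cldn3 missed the threshold at -0.33 (SE 0.15, adjusted p = 0.098). Cldn3 passed under 5 of 23 alternatives, over which the adjusted p was 0.017 to 0.2. Removal of mitochondrial ribosomal RNA gave -0.4 (adjusted p = 0.042), and omission of the low-count filter gave -0.36 (adjusted p = 0.049). The remaining fits that passed had fewer libraries. One lacked replicate 3 of RFP- MHCIIhi (-0.45, adjusted p = 0.027). Another lacked replicate 4 of the RFP+ MHCIIlo population (-0.44, adjusted p = 0.017), and the last lacked both its replicates 1 and 4 (-0.38, adjusted p = 0.043).

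Other properties of the sorted cells moved with these differences. With the label, 28.9% of all genes were higher and 22.7% lower in MHCIIlo, and 23.8% and 21.2% in MHCIIhi cells. Corneocyte-like mTEC genes, keratins and cornified envelope genes among them, were higher in RFP+ MHCIIlo than in RFP- MHCIIlo for 8 of 8 genes, and their summed level was 1551 to 2336 CPM in RFP+ MHCIIlo, against 235 to 309 CPM in RFP- MHCIIlo. In the MHCIIhi gate 7 of these 8 genes were higher and 1 was lower, with sums of 595 to 795 CPM in RFP+ MHCIIhi libraries and 203 to 233 CPM in RFP- MHCIIhi. Tuft mTEC genes were higher for 8 of 8 genes in both gates, with sums of 2576 to 3817 CPM in RFP+ MHCIIlo, 414 to 542 CPM in RFP+ MHCIIhi, 1216 to 1976 CPM in RFP- MHCIIlo libraries and 99.3 to 119 CPM in RFP- MHCIIhi. These gene sets mark late states that labelled mTEC are known to enter. Epithelial genes were higher with the label for 3 of 4 in both gates, with the sums given above. Immature mTEC genes were lower for all 5 tested of 6 in RFP+ MHCIIlo against RFP- MHCIIlo, with sums of 817 to 864 CPM in RFP+ MHCIIlo libraries and 2282 to 2883 CPM in RFP- MHCIIlo. The gene of this list that was not tested, Ccl21a, had 1 read in all 16 libraries. Mesenchymal genes were lower for 6 of 8 in the same comparison, with sums of 80.3 to 205 CPM in RFP+ MHCIIlo libraries and 567 to 1167 CPM in RFP- MHCIIlo. Between the MHCIIhi populations, cortical epithelial genes were lower in RFP+ for 7 of 8 and thymocyte genes for 9 of 9, the thymocyte genes summing to 91.9 to 154 CPM in RFP+ MHCIIhi libraries and 331 to 755 CPM in RFP- MHCIIhi. Mitochondrial ribosomal RNA took 31.4 to 38.5% of counts in RFP+ MHCIIlo and 39.2 to 45.9% in RFP- MHCIIlo libraries. With those counts left out, Cldn1, Cldn3, Cldn4, Cldn7 and Cldn23 passed the threshold in the same direction in both gates. The part of the marker lists in the claudin differences was not tested.

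**Figure D2:**
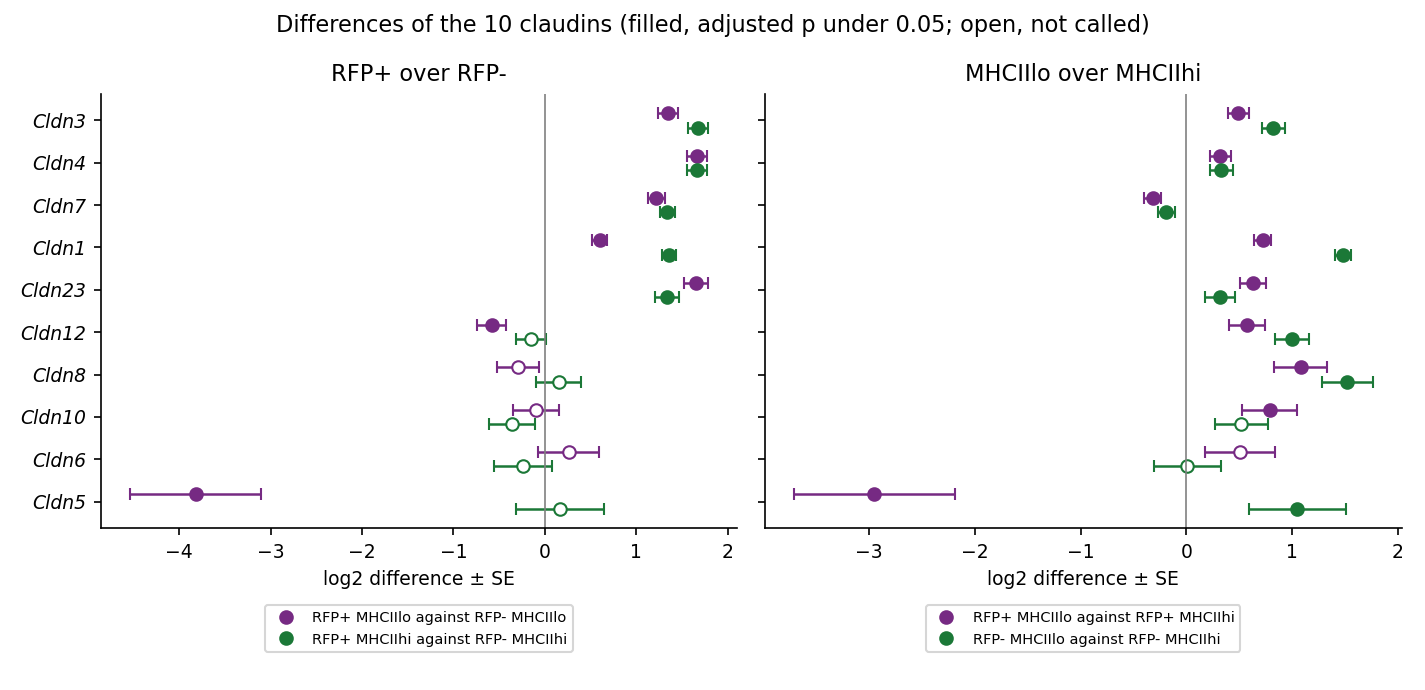
Log2 differences with their SE for the 10 claudins, RFP+ over RFP- cells within each MHCII gate (left) and MHCIIlo over MHCIIhi cells within labelled and unlabelled cells (right). Filled points passed an adjusted p of 0.05 and open points did not. Cldn3, Cldn4, Cldn7, Cldn1 and Cldn23 lie at 0.60 to 1.68 on the left, and on the right Cldn7 lies below 0 in both comparisons while Cldn5 lies on opposite sides.

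The second question is how MHCIIlo and MHCIIhi cells with the same label differ. Among labelled cells 7 claudins were higher in RFP+ MHCIIlo than in RFP+ MHCIIhi, where 27.5% of all genes were higher, and 2 were lower, where 28.1% were lower. The 7 were Cldn1, Cldn3, Cldn4, Cldn8, Cldn10, Cldn12 and Cldn23, and the lower ones were Cldn7 and Cldn5. Among unlabelled cells 7 were higher in RFP- MHCIIlo than in RFP- MHCIIhi and Cldn7 was lower, where 33.5% and 35.6% of all genes were called. The claudin medians were 0.54 in labelled and 0.67 in unlabelled cells on the log2 scale, against 0.01 and 0.0 over all genes. Across both label and gate, 7 claudins were higher and 1, Cldn5, was lower in RFP+ MHCIIlo than in RFP- MHCIIhi, where 33.6% and 34.9% of all genes were called, and 4 were higher and 3 lower in RFP+ MHCIIhi than in RFP- MHCIIlo, where 35.3% and 30.6% were. These gate comparisons and the label comparisons use the same libraries and are not independent of each other.

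Cldn1 had the largest gate difference of the abundant claudins, with a log2 of 0.72 (SE 0.08, adjusted p = 4e-08) in labelled and 1.48 (SE 0.08, adjusted p = 1.4e-13) in unlabelled cells. Cldn3 was higher in MHCIIlo cells by 0.49 (SE 0.10, adjusted p = 0.00033) in labelled and 0.82 (SE 0.11, adjusted p = 6e-07) in unlabelled cells. For Cldn4 the gate difference was small, at 0.32 (SE 0.10, adjusted p = 0.011) and 0.33 (SE 0.11, adjusted p = 0.012). Leaving out RFP+ MHCIIlo replicate 3 (0.26) or RFP+ MHCIIhi replicate 2 (0.27) ended the labelled call for Cldn4, each with an adjusted p of 0.063, and leaving out RFP- MHCIIlo replicate 2 ended the unlabelled call (0.22, adjusted p = 0.094).

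Cldn23 was higher in RFP+ MHCIIlo than in RFP+ MHCIIhi cells by 0.63 (SE 0.12, adjusted p = 0.00017). Between the unlabelled populations its difference of 0.32 (SE 0.14) stood at the threshold with an adjusted p of 0.049 and missed it under 15 of 24 alternatives, among them the absence of RFP+ MHCIIlo replicate 3, RFP+ MHCIIhi replicates 1, 2 or 3, RFP- MHCIIlo replicates 1 or 2, or any RFP- MHCIIhi replicate. Without RFP- MHCIIlo replicate 1 the value was 0.21 (adjusted p = 0.2). Cldn7 was lower in RFP+ MHCIIlo than in RFP+ MHCIIhi by a log2 of -0.32 (SE 0.08, adjusted p = 0.0018) and kept this call under all 24 alternatives. Its unlabelled difference of -0.19 (SE 0.08) had an adjusted p of 0.046. That call was lost under 12 of 24 alternatives, which included leaving out RFP+ MHCIIlo replicates 2 or 3, RFP+ MHCIIhi replicate 2, RFP- MHCIIlo replicates 1, 2 or 3, or RFP- MHCIIhi replicates 2, 3 or 4, with adjusted p-values of up to 0.15.

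Among the claudins with low levels, Cldn12 and Cldn8 were higher in MHCIIlo cells in both comparisons, and neither was higher in RFP+ cells of either gate. Low levels rest on few reads, with 79 to 229 reads per library for Cldn12 and 23 to 60 for Cldn8. Some marker lists moved between gates too. The shares of all genes higher and lower in MHCIIlo were 27.5% and 28.1% among labelled cells and 33.5% and 35.6% among unlabelled cells. Tuft mTEC genes were higher in MHCIIlo for 8 of 8 among labelled and 8 of 8 among unlabelled cells, with median log2 differences of 2.82 and 3.87 and the sums given above. Cortical epithelial genes were lower in MHCIIlo for 7 of 8 among labelled cells, with sums of 377 to 498 CPM in RFP+ MHCIIlo libraries and 1218 to 1727 CPM in RFP+ MHCIIhi. They were lower for 8 of 8 among unlabelled cells, with sums of 918 to 1103 CPM in RFP- MHCIIlo libraries and 3113 to 5218 CPM in RFP- MHCIIhi.

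Corneocyte-like genes were higher for 7 of 8 in labelled cells, and for 4 with 1 lower in unlabelled cells. Immature mTEC genes were higher for 2 of 5 tested in labelled and 5 of 5 in unlabelled cells, and myeloid genes were lower for 5 of 6 and 6 of 6. Thymocyte genes were higher for 1 of 9 and lower for 2 among labelled cells. Among unlabelled cells they were lower for 9 of 9, with sums of 42.6 to 66.7 CPM in RFP- MHCIIlo libraries and 331 to 755 CPM in RFP- MHCIIhi. Mesenchymal genes were higher for 3 of 8 and lower for 2 among labelled cells. Among unlabelled cells they were higher for 6 of 8 and lower for 1, with sums of 567 to 1167 CPM in RFP- MHCIIlo libraries and 194 to 204 CPM in RFP- MHCIIhi. The labelled counts of immature mTEC, thymocyte and mesenchymal genes lay near or below the shares of all genes. Mitochondrial ribosomal RNA took 31.4 to 38.5% of counts in RFP+ MHCIIlo against 29.3 to 32.7% in RFP+ MHCIIhi libraries, and 39.2 to 45.9% in RFP- MHCIIlo against 32.3 to 35.8% in RFP- MHCIIhi libraries. Their part in the claudin differences was not tested.

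**Figure D3:**
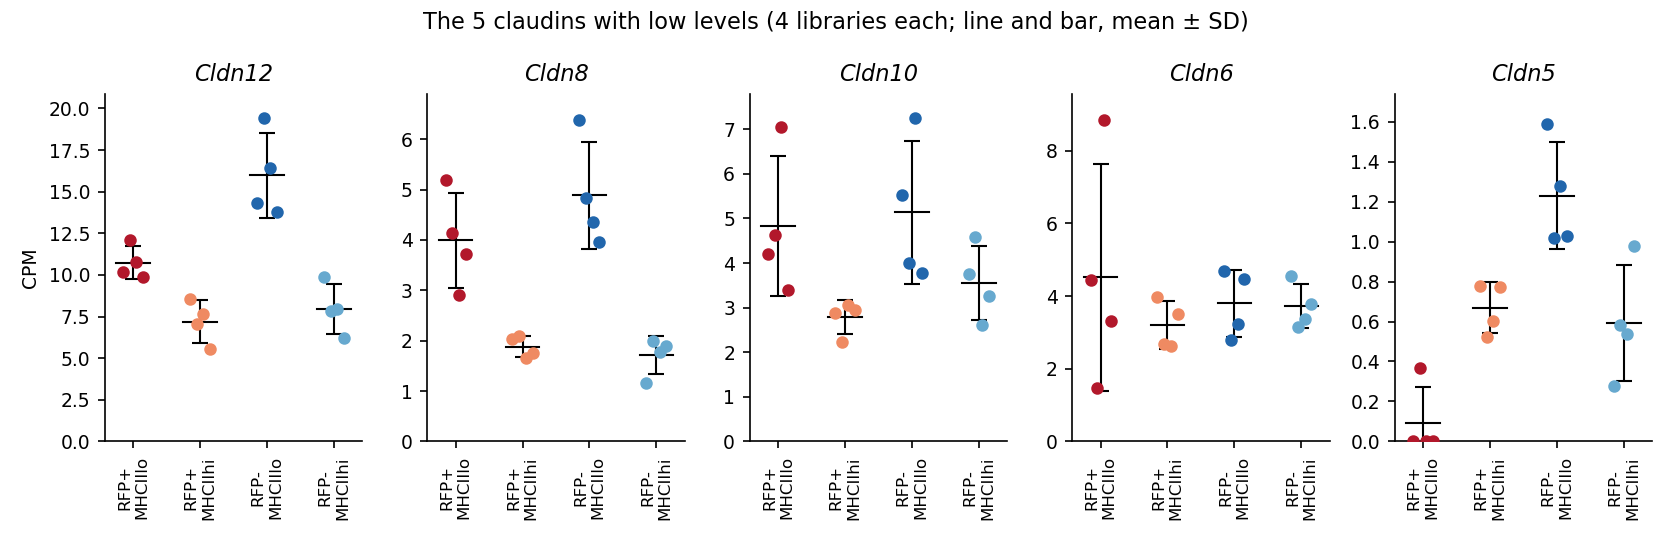
CPM of Cldn12, Cldn8, Cldn10, Cldn6 and Cldn5 in each of the 4 libraries of RFP+ MHCIIlo, RFP+ MHCIIhi, RFP- MHCIIlo and RFP- MHCIIhi cells (points), with the mean and SD (line and bar). Cldn12 and Cldn8 are higher in the MHCIIlo libraries, Cldn6 overlaps in all populations, and 3 of 4 RFP+ MHCIIlo libraries hold no Cldn5 read.

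Cldn12 (ENSMUSG00000046798, chr5:5489537-5514958, minus strand) encodes a claudin that lacks the usual tail for binding the junction plaque. It had 10.2, 12.1, 10.8 and 9.87 CPM in RFP+ MHCIIlo libraries, 8.57, 7.06, 7.63 and 5.54 CPM in RFP+ MHCIIhi libraries, 14.3, 19.4, 16.4 and 13.8 CPM in RFP- MHCIIlo, and 9.88, 7.81, 7.98 and 6.20 CPM in RFP- MHCIIhi libraries. RFP- MHCIIlo libraries were above all others. The gate differences were 0.57 (SE 0.17, adjusted p = 0.0055) in labelled and 1.00 (SE 0.16, adjusted p = 6.4e-06) in unlabelled cells. Cldn12 was lower in RFP+ MHCIIlo cells than in RFP- MHCIIlo (log2 -0.58, SE 0.16, adjusted p = 0.0041), which is the reverse of the abundant claudins, and the value between the MHCIIhi populations missed the threshold (log2 -0.15, SE 0.16, adjusted p = 0.48).

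Cldn8 (ENSMUSG00000050520, chr16:88560828-88563183, minus strand) encodes a claudin of the kidney collecting duct, where it holds claudin-4 at the junction. It had 5.19, 4.14, 2.91 and 3.73 CPM in RFP+ MHCIIlo libraries, 2.03, 2.10, 1.65 and 1.75 CPM in RFP+ MHCIIhi libraries, 6.38, 4.84, 4.35 and 3.96 CPM in RFP- MHCIIlo, and 1.16, 2.00, 1.77 and 1.90 CPM in RFP- MHCIIhi libraries. Every MHCIIlo library was above every MHCIIhi library. The log2 difference was 1.08 (SE 0.25, adjusted p = 0.00071) in labelled and 1.52 (SE 0.24, adjusted p = 6.8e-06) in unlabelled cells. Cldn8 levels of RFP+ and RFP- cells of the same gate overlapped, with log2 differences of -0.29 (SE 0.23, adjusted p = 0.32) in MHCIIlo and 0.15 (SE 0.25, adjusted p = 0.65) in MHCIIhi cells.

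Cldn10 (ENSMUSG00000022132, chr14:118787908-118875489, plus strand) encodes an ion channel of the tight junction whose isoforms pass either anions or cations. It had 4.21, 4.63, 7.06 and 3.40 CPM in RFP+ MHCIIlo libraries, 2.88, 2.22, 3.07 and 2.95 CPM in RFP+ MHCIIhi libraries, 5.53, 3.99, 7.25 and 3.78 CPM in RFP- MHCIIlo, and 3.76, 4.58, 2.61 and 3.27 CPM in RFP- MHCIIhi libraries. The counts are per gene and do not separate the isoforms. The difference between RFP+ MHCIIlo and RFP+ MHCIIhi was 0.79 (SE 0.26, adjusted p = 0.013), and the call ended when RFP+ MHCIIlo replicate 3 (0.52, adjusted p = 0.097) or RFP+ MHCIIhi replicate 2 (0.66, adjusted p = 0.051) was left out. Between the unlabelled populations the value was 0.52 (SE 0.25, adjusted p = 0.065), and their ranges overlapped. It passed under 7 of 24 alternatives, over which it was 0.30 to 0.66 (adjusted p of 0.031 to 0.31). These were the fits without mitochondrial ribosomal RNA (0.57), without RFP+ MHCIIlo replicates 3, 4 or both 1 and 4 (0.52 each), without RFP- MHCIIlo replicates 2 (0.62) or 4 (0.64), and without RFP- MHCIIhi replicate 2 (0.66). The lowest value, 0.30 (adjusted p = 0.31), was that without RFP- MHCIIlo replicate 3.

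Cldn6 (ENSMUSG00000023906, chr17:23679249-23682446, plus strand) encodes a claudin of embryonic epithelium. It had 4.43, 1.46, 8.83 and 3.32 CPM in RFP+ MHCIIlo libraries, 3.98, 2.68, 2.63 and 3.51 CPM in RFP+ MHCIIhi libraries, 4.68, 2.80, 3.24 and 4.47 CPM in RFP- MHCIIlo, and 4.55, 3.16, 3.38 and 3.79 CPM in RFP- MHCIIhi libraries. RFP+ MHCIIlo libraries spanned the range of all the others, and no comparison of populations passed the threshold with all 16 libraries. The value for RFP+ MHCIIlo against RFP+ MHCIIhi was 0.51 (SE 0.33, adjusted p = 0.19) with all libraries, 0.76 (adjusted p = 0.029) without RFP+ MHCIIlo replicate 2 and -0.05 (adjusted p = 0.9) without RFP+ MHCIIlo replicate 3.

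Cldn5 (ENSMUSG00000041378, chr16:18776847-18778262, plus strand) encodes the sealing claudin of blood vessel endothelium. It was the rarest of the 10, with 0, 0.366, 0 and 0 CPM in RFP+ MHCIIlo libraries, 0.779, 0.525, 0.604 and 0.772 CPM in RFP+ MHCIIhi libraries, 1.59, 1.02, 1.28 and 1.03 CPM in RFP- MHCIIlo, and 0.278, 0.581, 0.537 and 0.976 CPM in RFP- MHCIIhi libraries. All its 3 reads in RFP+ MHCIIlo lay in replicate 2, where 3 reads are also the count that a library with none could have missed. RFP+ MHCIIlo was at 0.0632 times the RFP- MHCIIlo level (3 against 54 reads), with a 95% exact counting interval of 0.0126 to 0.195 times. The ratio was 0.117 (0.0231 to 0.366) to RFP+ MHCIIhi with 41 reads and 0.133 (0.0262 to 0.417) to RFP- MHCIIhi with 39 reads, and these intervals cover counting error only. In the fit, Cldn5 was lower in RFP+ MHCIIlo cells than in RFP- MHCIIlo (adjusted p = 9.9e-05) and than in RFP+ MHCIIhi (adjusted p = 0.0022), and with replicates 1 and 4 of RFP+ MHCIIlo left out the last of these missed the threshold (adjusted p = 0.054). The fitted log2 difference to RFP- MHCIIlo, -3.82 with all libraries and -7.09 without replicate 2, depends on how the fit treats libraries with no read and is not a measure of its size. Cldn5 was higher in RFP- MHCIIlo than in RFP- MHCIIhi by 1.05 (SE 0.46) with an adjusted p of 0.049, which was missed under 15 of 24 alternatives, those without any single RFP+ MHCIIhi or RFP- MHCIIlo library or without RFP- MHCIIhi replicates 1, 2 or 3 among them, with adjusted p-values of up to 0.17.

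Of the 13 endothelial genes, 8 were lower and 2 higher in RFP+ MHCIIlo against RFP- MHCIIlo, where 22.7% and 28.9% of all genes were. Their summed level was 72.1 to 92.5 CPM in RFP+ MHCIIlo libraries and 86.4 to 135 CPM in RFP- MHCIIlo libraries. It was 96.0 to 99.7 CPM in RFP+ MHCIIhi and 79.2 to 89.8 CPM in RFP- MHCIIhi libraries. The sums of RFP+ MHCIIlo and RFP- MHCIIhi thus overlapped, unlike the order of Cldn5. Cdh5, the cadherin of endothelial junctions, averaged 0.729 ± 0.492 CPM in RFP+ MHCIIlo, 2.63 ± 0.803 CPM in RFP+ MHCIIhi, 13.8 ± 3.87 CPM in RFP- MHCIIlo libraries and 5.44 ± 1.57 CPM in RFP- MHCIIhi (SD, n = 4 each), and Pecam1 averaged 3.35 ± 0.957, 9.01 ± 0.786, 11.7 ± 0.74 and 10.8 ± 2.74 CPM in these populations. As for Cldn5, their means were lowest in RFP+ MHCIIlo and highest in RFP- MHCIIlo, though for Pecam1 the spreads of the RFP- populations overlapped. The receptor genes Tek and Flt1 were the 2 that were higher, by 0.84 (SE 0.17, adjusted p = 0.00018) and 0.75 (SE 0.15, adjusted p = 0.00016), and the other endothelial genes that were lower were Kdr, Egfl7, Emcn, Esam, Eng and Robo4. In RFP- MHCIIlo against RFP- MHCIIhi, 5 of the 13 endothelial genes were higher and 3 lower, where 33.5% and 35.6% of all genes were. Cdh5 and Pecam1 were chosen after their values were seen, and whether endothelial cells account for Cldn5 was not tested.

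Read as a whole, the claudin transcripts were more abundant in labelled cells and differed in makeup with the gate. Summed over the 24 examined claudins, levels per length were 301 ± 24.4 CPM per kb in RFP+ MHCIIlo, 286 ± 17.6 CPM per kb in RFP+ MHCIIhi, 138 ± 5.42 CPM per kb in RFP- MHCIIlo and 133 ± 5.09 CPM per kb in RFP- MHCIIhi (SD, n = 4 each). The lowest labelled library, at 269 CPM per kb, stood above the highest unlabelled one, at 144 CPM per kb. Cldn3 made up 36.1 ± 2.96% of the sum in RFP+ MHCIIlo, 27.0 ± 0.594% in RFP+ MHCIIhi, 31.0 ± 2.67% in RFP- MHCIIlo and 18.1 ± 1.75% in RFP- MHCIIhi. The 10 members together made up 91.3, 79.5, 85.9 and 62.9% in the same populations. The lower share in MHCIIhi cells went with Cldn13, a claudin of mice that humans lack, which made up 3.22% in RFP+ MHCIIlo, 14.5% in RFP+ MHCIIhi, 2.3% in RFP- MHCIIlo and 30.1% in RFP- MHCIIhi. The shares add up to a fixed total, so a larger share of one claudin lowers the others.

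**Figure D4:**
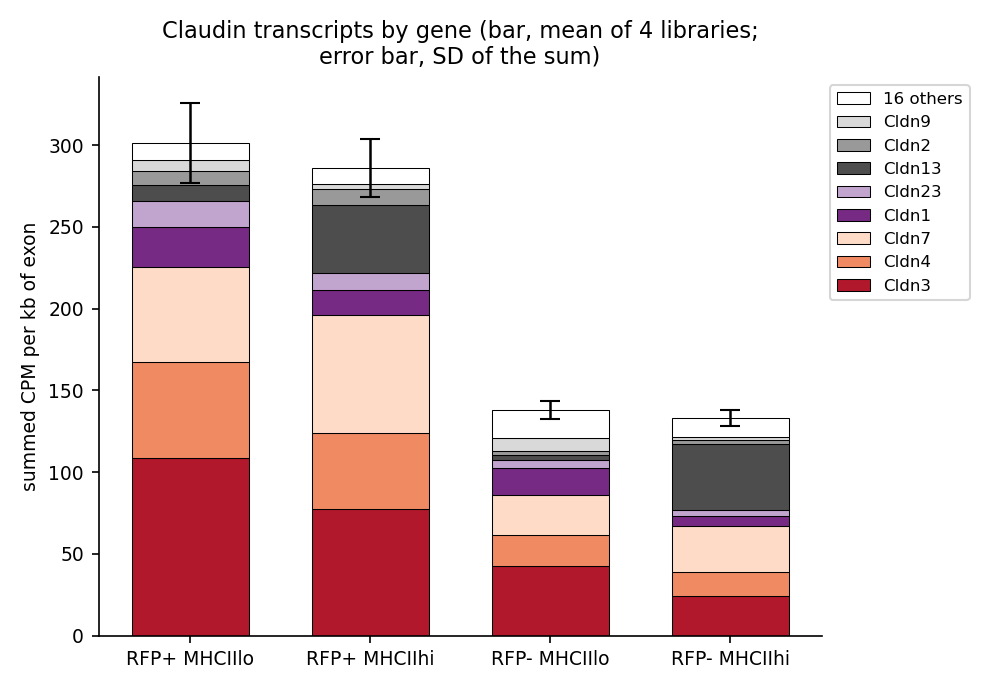
Summed CPM per kb of exon of 24 claudin genes in RFP+ MHCIIlo, RFP+ MHCIIhi, RFP- MHCIIlo and RFP- MHCIIhi cells, split by gene (bar segments, mean of 4 libraries) with the SD of the sum (error bar). The sums are near 301 and 286 in labelled and near 138 and 133 in unlabelled cells, and the Cldn13 segment is wide in both MHCIIhi populations.

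Of the 14 other claudins, 8 could be tested. With the label, 3 were higher and 2 lower in MHCIIlo cells, where 28.9% and 22.7% of all genes were, and 2 were higher and 2 lower in MHCIIhi cells, where 23.8% and 21.2% were, so the counts lay near those over all genes. Between gates their medians were below 0, unlike those of the 10 members. Both sets were chosen with earlier results of these data known, so this contrast partly reflects the choice. In RFP+ MHCIIlo against RFP+ MHCIIhi 1 was higher and 4 lower, with a median of -1.33 (27.5% and 28.1% of all genes). In RFP- MHCIIlo against RFP- MHCIIhi 2 were higher and 4 lower, with a median of -1.09 (33.5% and 35.6% of all genes). Cldn2, which forms a pore for cations and water, averaged 28.3 CPM in RFP+ MHCIIlo, 32.9 CPM in RFP+ MHCIIhi, 7.12 CPM in RFP- MHCIIlo libraries and 7.75 CPM in RFP- MHCIIhi. Its RFP difference was 2.00 (SE 0.20, adjusted p = 1.2e-08) in MHCIIlo and 2.08 (SE 0.19, adjusted p = 2.8e-09) in MHCIIhi cells, while its gate differences of -0.21 (adjusted p = 0.31) and -0.14 (adjusted p = 0.57) missed the threshold.

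Cldn13, Cldn4 and Cldn3 lie in this order on chromosome 5, with 29.6 kb and Mettl27 between Cldn13 and Cldn4 and 39.3 kb between Cldn4 and Cldn3. Cldn4 over Cldn3, as a ratio of CPM per kb, was 0.545 ± 0.0742 in RFP+ MHCIIlo, 0.608 ± 0.0271 in RFP+ MHCIIhi, 0.439 ± 0.0876 in RFP- MHCIIlo and 0.618 ± 0.0646 in RFP- MHCIIhi. Cldn13 over Cldn4 was 0.166 ± 0.0422, 0.883 ± 0.122, 0.177 ± 0.0613 and 2.72 ± 0.219 in the same populations. Cldn13 was lower in MHCIIlo than in MHCIIhi cells, with log2 differences of -2.10 (SE 0.14, adjusted p = 2.2e-11) in labelled and -3.66 (SE 0.16, adjusted p = 4.4e-15) in unlabelled cells, where Cldn3 and Cldn4 were higher. With the label it was higher by 1.61 (SE 0.18, adjusted p = 9.8e-08) in the MHCIIlo gate, and in the MHCIIhi gate the value was 0.05 (SE 0.12, adjusted p = 0.77). The difference of these label differences was 1.56 (SE 0.22, adjusted p = 7.6e-06). Cldn3 overlaps Wbscr25, a gene on the opposite strand, by 40 bases at its 3′ end. Since the strand setting is not given, a few of its reads could belong to Wbscr25, which had 308 reads in all where Cldn3 had 15928.

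**Figure D5:**
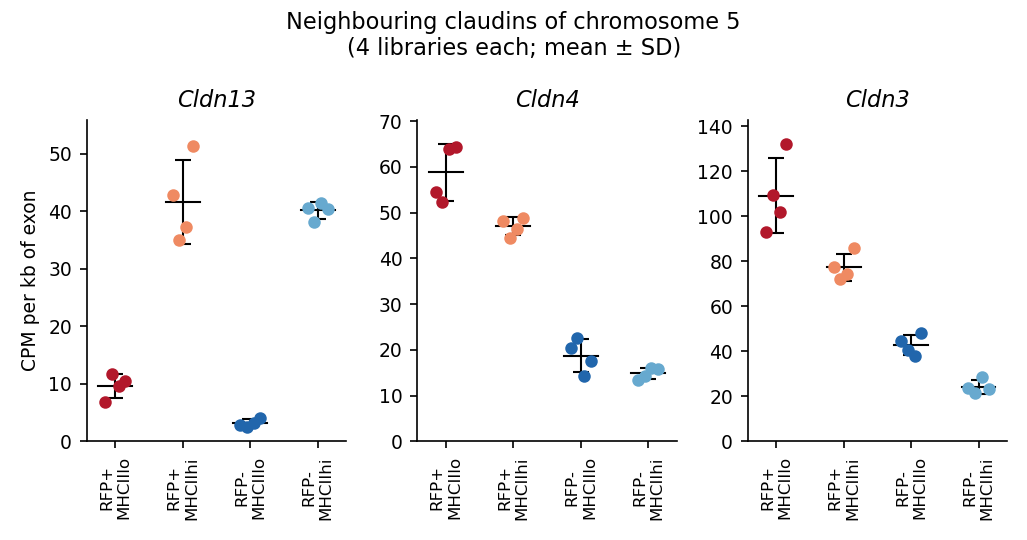
CPM per kb of exon of Cldn13, Cldn4 and Cldn3, in their order along chromosome 5, in each of the 4 libraries of RFP+ MHCIIlo, RFP+ MHCIIhi, RFP- MHCIIlo and RFP- MHCIIhi cells (points) with the mean and SD (line and bar). Cldn13 is high in both MHCIIhi populations, and Cldn4 and Cldn3 are high in both RFP+ populations.

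A second pair of neighbours, Cldn6 and Cldn9, lies 137 bases apart on chromosome 17. Cldn9, a claudin known from the mouse inner ear and chosen here after its values were seen, averaged 9.52 CPM in RFP+ MHCIIlo, 4.89 CPM in RFP+ MHCIIhi, 11.7 CPM in RFP- MHCIIlo libraries and 2.82 CPM in RFP- MHCIIhi. Unlike Cldn6 it differed between gates, by 0.98 (SE 0.17, adjusted p = 2.8e-05) in labelled and 2.04 (SE 0.17, adjusted p = 2.7e-10) in unlabelled cells. The genes lie on opposite strands and their 3′ ends face each other, so reads at this end could have been assigned to either.

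Genes whose levels followed those of the claudins most closely were read from Pearson's r of log2 CPM over the 16 libraries, among 8414 genes with at least 20 CPM in their highest population. Such values describe these libraries, which share 4 population means. Cldn1 was followed by Klf5 (r = 0.992), Acvr1b (0.991) and Fosl2 (0.989), which encode a transcription factor, an activin receptor and a subunit of AP-1. Klf5 averaged 139 CPM in RFP+ MHCIIlo, 62.1 CPM in RFP+ MHCIIhi, 67.3 CPM in RFP- MHCIIlo libraries and 14.3 CPM in RFP- MHCIIhi, which is the order of Cldn1 with a wider span. Cldn23 was followed by Krt1 (0.989), a keratin of differentiated epidermis that is also on the corneocyte-like list, Ly6g6c (0.988) and Tmem45a (0.985). Cldn3 was followed by Dapl1 (0.989), the keratin gene Krt6b (0.986) and Wfdc17 (0.985). For Cldn4 the closest were Car12, a carbonic anhydrase (0.985), Bcl2l14 and Ttc22 (0.983 each). For Cldn7 they included AA467197 (0.988) and Akr1c12 (0.984), and for Cldn12 they were Spag9 (0.959), Tead1 (0.957) and 2610507B11Rik (0.951).

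The counts for the other junction lists stand beside the same shares of all genes as those of the claudins, which with the label were 28.9% higher and 22.7% lower in MHCIIlo and 23.8% higher and 21.2% lower in MHCIIhi cells. Of the other proteins of the tight junction membrane, 7 of 11 were higher in RFP+ MHCIIlo than in RFP- MHCIIlo and 2, Jam2 and Ildr2, were lower, with a median log2 difference of 0.76. Jam2 averaged 2.07 CPM in RFP+ MHCIIlo cells and 7.38 CPM in RFP- MHCIIlo cells, and Ildr2 2.1 and 19.5 CPM in these populations. In RFP+ MHCIIhi against RFP- MHCIIhi 8 of 11 were higher and none lower, also at an unadjusted p of 0.05 by edgeR, with a median of 0.81. Ocln, which encodes occludin, averaged 30.8 ± 1.67 CPM in RFP+ MHCIIlo, 29.5 ± 2.7 CPM in RFP+ MHCIIhi, 14.8 ± 2.1 CPM in RFP- MHCIIlo libraries and 24.8 ± 2.59 CPM in RFP- MHCIIhi (SD, n = 4 each). It was higher with the label by 1.06 (SE 0.11, adjusted p = 2.5e-08) in MHCIIlo cells. Marveld2, or tricellulin, which seals the points where 3 cells meet, and the related Marveld3 were higher there by 0.98 and 0.96 (adjusted p = 5.1e-08 and 3.8e-08). In MHCIIhi cells the largest values among the called genes with at least 20 CPM were those of Ildr1, which recruits tricellulin (1.28, SE 0.10), the adhesion molecule gene F11r (1.27, SE 0.08) and Marveld3 (1.01, SE 0.10), and Igsf5, at 3.2 CPM in labelled and 1.31 CPM in unlabelled cells of this gate, had 1.30 (SE 0.31).

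Between the labelled populations, MHCIIlo over MHCIIhi, 3 of 11 were higher and 2 lower, where 27.5% and 28.1% of all genes were, so the count higher was at the share of all genes. In RFP- MHCIIlo against RFP- MHCIIhi 6 were higher and 2 lower, where 33.5% and 35.6% of all genes were. Cxadr, a virus receptor of the junction, was higher in MHCIIlo by 1.22 (SE 0.11) in labelled and 2.01 (SE 0.11) in unlabelled cells, and Lsr, another protein of cell corners, by 0.59 (SE 0.08) and 0.92 (SE 0.09). F11r and Marveld2 were lower in RFP+ MHCIIlo than in RFP+ MHCIIhi, by -0.48 (SE 0.08) and -0.31 (SE 0.10). Marveld2 and Ocln were lower in RFP- MHCIIlo than in RFP- MHCIIhi, by -0.98 (SE 0.10) and -0.75 (SE 0.11), where Cldn3 and Cldn1 were higher.

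The plaque and polarity proteins, some of which bind claudin tails, had counts in each direction near or above the shares of all genes. With the label 7 of 19 were higher and 8 lower in MHCIIlo cells (28.9% and 22.7% of all genes), and 8 were higher and 4 lower in MHCIIhi cells (23.8% and 21.2%), with medians of -0.04 and 0.04. Among the 3 zonula occludens scaffolds, Tjp3 was the one with a large difference, at 99.1 ± 8.49 CPM in RFP+ MHCIIlo, 102 ± 2.83 CPM in RFP+ MHCIIhi, 35.2 ± 4.57 CPM in RFP- MHCIIlo libraries and 51.6 ± 1.28 CPM in RFP- MHCIIhi. It was higher with the label by 1.49 (SE 0.09, adjusted p = 1.7e-12) and 0.99 (SE 0.08, adjusted p = 1.3e-09). Crb3, a polarity protein of the apical membrane, was higher by 1.47 (SE 0.15) in MHCIIlo and 0.94 (SE 0.14) in MHCIIhi cells. Mpdz and Amotl1 were lower in RFP+ MHCIIlo cells than in RFP- MHCIIlo, by -2.58 (SE 0.21) and -2.24 (SE 0.10), and Amotl1 by -1.10 (SE 0.09) in the MHCIIhi gate.

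Partners that bind claudins or process those partners were mostly higher with the label, at 6 of 9 with 1 lower in MHCIIlo and 6 of 9 with none lower in MHCIIhi cells, also at an unadjusted p of 0.05 by edgeR. Spint1, an inhibitor of the proteases that cut EPCAM, was higher with the label by 1.27 (SE 0.09) in MHCIIhi cells. Epcam, which encodes the partner of claudin-7 and was itself used for the sort, was higher there by 0.60 (SE 0.08). Adherens junction genes were higher for 4 of 10 and lower for 3 in MHCIIlo cells and higher for 7 with none lower in MHCIIhi cells, again also at an unadjusted p of 0.05. The largest values among those with at least 20 CPM were those of Nectin4 (1.75, SE 0.12, in MHCIIlo) and Nectin2 (1.56, SE 0.09, in MHCIIhi), while Cdh3, or P-cadherin, was lower in RFP+ MHCIIlo by -2.26 (SE 0.13).

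Of 18 transcription factors known to act on claudin genes, 10 were higher and 4 lower with the label in MHCIIlo cells (28.9% and 22.7% of all genes), and 8 were higher and 3 lower in MHCIIhi cells (23.8% and 21.2%). The counts lower lay at or below the shares of all genes. Ovol1 (2.03, SE 0.17), Grhl1 (1.99, SE 0.10) and Grhl3 (1.30, SE 0.11), which maintain epithelial genes, were higher in RFP+ MHCIIlo than in RFP- MHCIIlo. Snai2 and Zeb1, repressors of epithelial genes, were lower there by -2.39 (SE 0.11) and -1.19 (SE 0.16), and Trp63 by -1.71 (SE 0.08). Unlike Grhl1 and Grhl3, Grhl2 had lower levels in RFP+ MHCIIlo, at 49.6 to 61.5 CPM, than in RFP- MHCIIlo libraries, at 62.9 to 81.8 CPM. In MHCIIhi cells the largest values among those with at least 20 CPM were those of Klf5 (2.12, SE 0.10), Elf3 (1.68, SE 0.09) and Klf4 (1.29, SE 0.09). Klf4 and Ehf were higher in RFP+ MHCIIlo than in RFP+ MHCIIhi by 1.25 (SE 0.09) and 1.22 (SE 0.10), where Cdx1 was lower by -1.36 (SE 0.11). Among unlabelled cells Snai2 and Klf5 were higher in RFP- MHCIIlo than in RFP- MHCIIhi, by 2.47 (SE 0.10) and 2.23 (SE 0.10). The action of any of these factors on the claudins of these cells was not tested.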

How the data were processed

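Per the labels' protocols, poly(A) RNA of the sorted cells was amplified with a NuGen Ovation kit, and Nextera XT libraries were sequenced. The authors deposited raw counts for each Ensembl gene. STAR, DESeq2 and the build GRCm38 are named in the submitters' processing notes, without versions. Which tool counted reads, with which annotation release and strand setting, is not given in the sources used. GENCODE M21 supplied symbols, coordinates and exon lengths (42548 of 43432 identifiers matched, and the others held 0.10% of reads).

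The tests used edgeR 4.0.16 in R 4.3.3. The filter filterByExpr (at least 10 counts, 15 in total) left 19617 genes. After TMM scaling, a single quasi-likelihood model held all 16 libraries with 1 mean for each population. Benjamini-Hochberg adjustment ran over all tested genes of a contrast, and genes under 0.05 were called. CPM are counts per M after TMM scaling, and log2 CPM used a prior count of 2. A list's median is that of its log2 differences. The SE of a log2 difference is its absolute value divided by the square root of the F statistic of the quasi-likelihood test. Alternatives used limma 3.58.1 and DESeq2 1.42.0. The fit was also run on simulated counts in which few genes were changed, and only in RFP+ MHCIIlo. That run does not cover data in which shares of genes as large as those here differ. In 24 pairs of replicates, the chi-square over its degrees of freedom was at least 3.18, so no library was counted as a repeat.

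The claudins and the lists were chosen with earlier results of these data known. From the partner lists, called genes with at least 20 CPM in the higher population were named from among the 3 largest log2 changes per direction. A few genes that this rule or the likeness to a claudin selects are not reported here. Genes with similar sequences, such as Cldn3 and Cldn4 or Cldn6 and Cldn9, can share reads, which leaves their own values uncertain.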

Additional observations from a re-analysis of the deposited data

Results flagged for a closer look

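Within populations, the gap of the highest or lowest library to its neighbour was set against the range for the 10 claudins in 4 populations, 40 groups in all, of which chance flags about 1 in 20. Cldn5 stood out in RFP+ MHCIIlo replicate 2, at 0.366 CPM, where the other 3 libraries had no read. With those at 0 the gap equals the range for any value of replicate 2, so this flag carries no information. Cldn23 stood out in the same library, at 24.3 CPM, where the other 3 had 30.9 to 32.0 CPM. RFP+ MHCIIlo replicate 2 was the shallowest library of the series, with 7.93 M counts.

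The RFP difference of Cldn1 differed between gates, by -0.76 on the log2 scale (MHCIIlo minus MHCIIhi, SE 0.11, adjusted p = 1e-05 by edgeR), with RFP+ above RFP- cells in both gates. That of Cldn5 also differed, with a fitted value of -4.0 (SE 0.89, adjusted p = 0.0012), which rests on 3 reads in RFP+ MHCIIlo cells.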

How the results depend on the processing

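Of the claudin log2 differences under the alternatives, 1569 kept their direction and side of the threshold, 57 lost their call, 16 gained one and 24 changed sign, all of the last for values that were not called. Cldn1, Cldn3, Cldn4, Cldn7 and Cldn23 kept their RFP calls in both gates under all 24. The number of claudins lower in RFP- MHCIIlo than in RFP- MHCIIhi, 1 as reported, was 0 with limma-voom, with no filter on low counts and without mitochondrial ribosomal RNA, and 0 to 1 over fits without 1 library. In fits of the compared populations alone, where Cldn5 failed the filter, 1 claudin was lower in RFP+ MHCIIlo cells than in RFP- MHCIIlo, 1 than in RFP+ MHCIIhi and 0 than in RFP- MHCIIhi. Without RFP+ MHCIIlo replicates 1 and 4, 1 was lower than in RFP+ MHCIIhi and 0 than in RFP- MHCIIhi, and Cldn10 in RFP+ MHCIIlo against RFP- MHCIIlo, -0.10 as reported, was 0.20. The cause was not tested.

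Differences near 0 changed sign. Cldn6 between the unlabelled populations, 0.01 as reported, was -0.04 with DESeq2 size factors in edgeR, -0.03 with DESeq2 and with limma-voom, -0.02 with no filter, and -0.09 to 0.14 over fits without 1 library. The gate dependence of Cldn4, -0.01 as reported, was 0.01 with limma-voom and -0.13 to 0.08 without 1 library. Without RFP+ MHCIIlo replicate 3, Cldn6 in RFP+ MHCIIlo was at -0.31 against RFP- MHCIIlo, -0.05 against RFP+ MHCIIhi and -0.29 against RFP- MHCIIhi, and its gate dependence was -0.07. These were the lowest of the fits without 1 library, and in the same order the highest were 0.50, 0.76, 0.52 and 0.74. Over fits without 1 library, Cldn10 in RFP+ MHCIIlo against RFP- MHCIIlo was -0.37 to 0.12, and in RFP+ MHCIIhi against RFP- MHCIIhi Cldn5 was -0.09 to 0.54 and Cldn8 -0.01 to 0.24.

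Libraries with the same replicate number in different populations correlated weakly in their deviations (r of -0.019 to 0.129 over 24 pairs, and -0.121 to 0.079 over 72 pairs with different numbers), and the best match had the same number in 35 of 48 cases, a hint from the data and not the design. With the replicate number as a block, Cldn5 in RFP- MHCIIlo against RFP- MHCIIhi missed the threshold (1.08, adjusted p = 0.063), and no other claudin call changed. Depth limits Cldn5, Cldn6, Cldn8 and Cldn10, whose libraries held 0 to 98 reads of each.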
